A study of Mus musculus with 20 samples.

Results

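Whole mouse testis on day 18 after birth was compared with whole mouse testis on day 14, with 2 arrays on each day. These are 4 of the 20 arrays of a postnatal series that samples 10 days from day 0 to day 35, and they were chosen by their titles alone. The labels name no strain, genotype or treatment, and nothing in them says whether the 2 samples of a day came from separate animals or from pooled litters. The p-values below therefore measure only the spread between samples of the same day. In the fit described below that spread is estimated over all 20 arrays and partly shared across genes. Day 18 replicate 2 carries day 0 in a second label and was analysed under its title. Over the 16429 genes tested its log2 intensities correlated across genes with day 18 replicate 1 at r = 0.969, and with the 2 day 0 arrays at r = 0.769 each. Genes are not independent replicates, so these correlations describe the arrays only.

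In the first wave of spermatogenesis the germ cells of a testis enter meiosis nearly together, so the age of the animal sets how far the most advanced cells have come. Around the earlier of these ages the most advanced spermatocytes are in early to middle pachytene, the long stage of meiotic prophase in which paired chromosomes complete recombination and the X and Y chromosomes are silenced. By the later age the leading cells are in late pachytene, when a spermatocyte stores messages and proteins for the divisions and for building the sperm head and tail. Germ cells also come to outnumber Sertoli, Leydig and peritubular cells.

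Each array gave 1 intensity for each of 45101 probe sets, and all arrays were deposited at the same trimmed mean. A gene was represented by 1 probe set. It was called when the difference in log2(intensity + 7.83) passed an adjusted p of 0.05 (limma, day as a factor over all 20 arrays, Benjamini-Hochberg adjustment over 16429 genes) and was at least 1, a 2-fold change. "Rose" and "fell" below mean called. Differences on this log2 scale are given as day 18 minus day 14 with the standard error (SE) of the fit, n = 2 arrays a day throughout. In bulk tissue fewer cells of a type and less RNA per cell cannot be told apart. The number of arrays limits the precision of every value.

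From day 14 to day 18 far more genes rose than fell. By the call, 2239 of 16429 genes were higher on day 18 (13.6%) and 598 were lower (3.64%), so that 78.9% of the calls were rises. A rise of at least 2 on the log2 scale was called for 494 genes and a fall of that size for 14. A rise of at least 3 was called for 118 genes, the largest fall being -2.59. Scaling the arrays in another way moved this balance. After quantile normalization the calls were 1667 higher and 704 lower (70.3% rises), and after scaling each array to a common median they were 1642 higher and 1656 lower (49.8% rises). The median of all genes was 0.05 as deposited, -0.01 after quantile normalization and -0.21 after scaling to a common median. Each difference below stands beside that median.

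**Figure D1:**
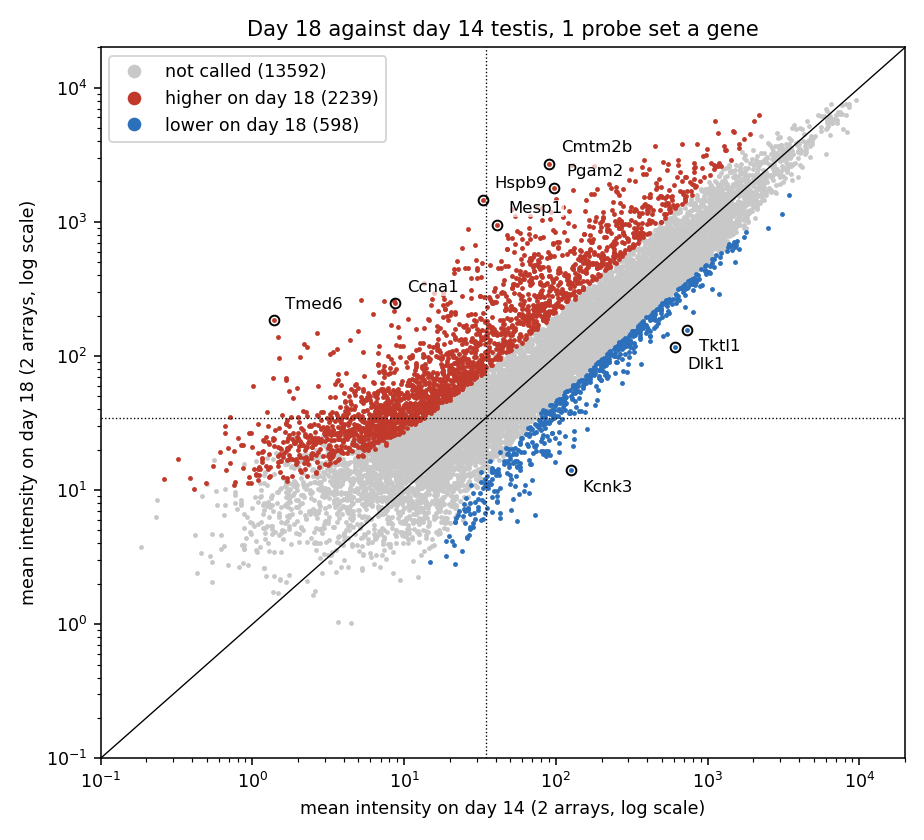
Mean intensity on day 18 (vertical, log scale) against mean intensity on day 14 (horizontal, log scale), 1 point a gene, 2 arrays a day. Red points were called higher on day 18 (2239), blue points lower (598), grey points were not called (13592). The solid line marks equal intensity and the dotted lines mark the median of all intensities, 34.6. Rises reach farther from the line than falls, and many red points lie in the lower left square, under the dotted lines.

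The weakest signals also stepped up between these ages. The 5th percentile of intensity was 3.53 and 3.77 on the day 18 arrays, against 1.04 and 1.10 on the day 14 arrays. The median of 27 probe sets for bacterial control genes was 6.10 and 5.86 on day 18, against 1.43 and 1.26 on day 14. On all 8 arrays of days 18 to 35 the 5th percentile lay between 3.46 and 5.54, and on the 12 arrays of days 0 to 14 between 0.882 and 1.23. Of the 2239 rises, 1421 had a day 14 mean under the median of all intensities (34.6), and 503 had a day 18 mean under it too. When every value under 34.6 was raised to 34.6, 1207 genes were called higher (7.35%) and 543 lower (3.31%). Both ways of reading the values called 1152 of the same rises and 453 of the same falls, with no overlap between the arrays of the days. Most list counts below give the floored count beside the main one. How much of each weak rise comes from this step was not tested.

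**Figure D2:**
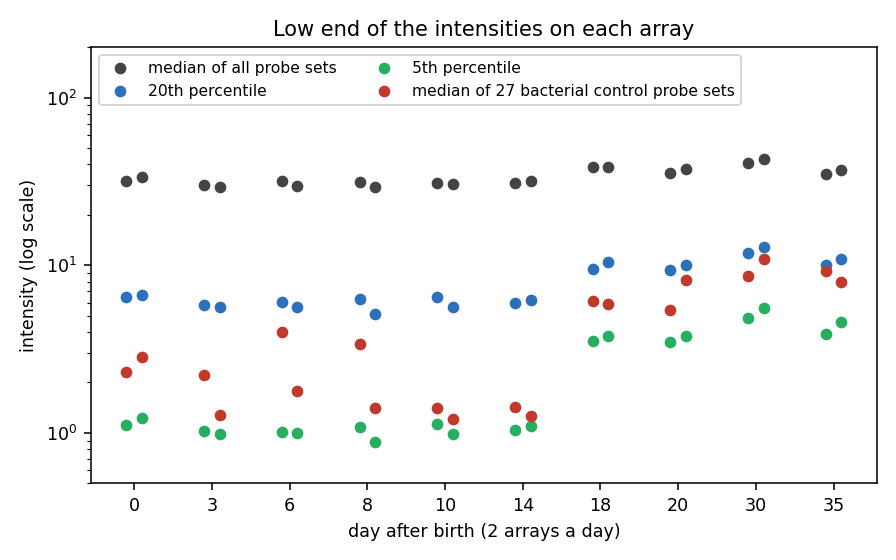
Low end of the intensities on each of the 20 arrays by day after birth (log scale), 2 arrays a day side by side. Black points give the median of all probe sets, blue the 20th percentile, green the 5th percentile and red the median of 27 bacterial control probe sets. Green points lie between 0.882 and 1.23 up to day 14 and between 3.46 and 5.54 from day 18 on.

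Arrays of other days can be set beside these calls without sharing an array. Day 10 and day 20 lie on either side of this interval and of the step in weak signals, and the fit is shared. Overlap of the calls was therefore likely in advance. Between day 20 and day 10, 3400 genes were higher (20.7%) and 2745 lower (16.7%) by the same fit. Of the 1152 rises, 1116 (96.9%) were also higher on day 20 than on day 10 and none was lower. Of the 453 falls, 407 (89.8%) were also lower and none was higher. With the floor, 1091 of the 1152 rises were called higher on day 20 than on day 10, and 406 of the 453 falls lower. The shared rises make up 32.8% of the day 20 rises, and the shared falls 14.8% of the day 20 falls. Of the 1152 rises, 66 had their highest mean on day 18, 315 on day 20, 356 on day 30, 413 on day 35 and 2 on day 3. Of the 453 falls, 88 had their highest mean on day 0, 107 on day 3, 50 on day 6, 50 on day 8, 81 on day 10, 69 on day 14 and 8 on day 35. The neighbouring steps, which share arrays with this one, gave 657 rises (4%) and 105 falls (0.639%) from day 10 to day 14, and 441 rises (2.68%) and 135 falls (0.822%) from day 18 to day 20.

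The rule for naming genes took the 12 largest called rises that also passed with the floor and whose day 18 arrays both lay above both day 14 arrays. Such a separation upward was seen for 38.5% of all genes, and downward for 35%. Among called genes it was seen for 2236 of the 2239 rises and all 598 falls, so it adds little to a call. Promoter sequences are shown for the leading 2 of the 12 rises, Hspb9 and Cmtm2b. Cmtm2a and Ccna1 were added after the values were seen, the first because it is the tandem neighbour of Cmtm2b and the second because it encodes the cyclin of the coming division. The sequences are the 250 bases before the annotated start on the gene's strand, 5′ to 3′, from RefSeq (GRCm38.p6). Capitals mark matches, on either strand, to the core of the MYB motif (CAACNG), the CRE palindrome (TGACGTCA), an RFX motif (GTTGCCA) or the CCAAT box (CCAAT). The opposite strand of the MYB core can share the letters GTTG with the RFX motif. The 4 stretches are chr11:100713679-100713928 (+) for Hspb9, chr8:104321977-104322226 (+) for Cmtm2b, chr8:104293182-104293431 (-) for Cmtm2a and chr3:55055056-55055305 (-) for Ccna1.
Hspb9: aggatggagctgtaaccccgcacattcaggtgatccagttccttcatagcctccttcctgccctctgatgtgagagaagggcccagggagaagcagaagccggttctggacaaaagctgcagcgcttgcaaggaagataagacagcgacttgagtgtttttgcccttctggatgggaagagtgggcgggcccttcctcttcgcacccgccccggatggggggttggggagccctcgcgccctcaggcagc
Cmtm2b: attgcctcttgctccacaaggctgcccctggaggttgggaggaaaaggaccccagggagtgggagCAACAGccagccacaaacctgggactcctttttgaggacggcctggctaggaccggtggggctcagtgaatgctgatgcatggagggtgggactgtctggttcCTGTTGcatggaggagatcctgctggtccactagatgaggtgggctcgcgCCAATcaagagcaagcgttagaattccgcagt
Cmtm2a: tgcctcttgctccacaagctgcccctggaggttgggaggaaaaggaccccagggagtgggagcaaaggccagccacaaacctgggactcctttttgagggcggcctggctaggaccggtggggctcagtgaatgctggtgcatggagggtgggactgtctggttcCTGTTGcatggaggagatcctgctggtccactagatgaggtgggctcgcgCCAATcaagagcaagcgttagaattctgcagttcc
Ccna1: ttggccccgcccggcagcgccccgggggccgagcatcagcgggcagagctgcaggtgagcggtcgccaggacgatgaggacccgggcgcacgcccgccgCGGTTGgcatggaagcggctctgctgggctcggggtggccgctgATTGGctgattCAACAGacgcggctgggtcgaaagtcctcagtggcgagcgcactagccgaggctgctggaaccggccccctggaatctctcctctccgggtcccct
The Cmtm2b and Ccna1 stretches hold 2 MYB core matches and 1 CCAAT box each, the Cmtm2a stretch 1 of each, and the Hspb9 stretch no match to any of the 4 motifs. The MYB core was present in 37.2% of the 923 promoters of the 1152 rises found in the table, in 24.4% of the 352 promoters of the 453 falls, in 28.5% of the 13123 promoters of genes tested and in 29.3% of all 27025 promoters. The RFX motif was present in 5.85% of the promoters of the rises, 1.42% of those of the falls, 3.55% of those of genes tested and 3.69% of all promoters. For the CRE palindrome these shares were 2.60%, 3.13%, 2.34% and 1.62%, and for the CCAAT box 37.5%, 34.1%, 35.8% and 34.5%. A match is a description of the letters and not a binding site. Aligned end to end, the Cmtm2b and Cmtm2a stretches had 242 identical positions, 5 mismatches and 6 gap positions (95.7% identical).

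Hspb9, a small heat shock protein of the testis, showed the largest rise. It had an intensity of 1455 and 1458 on the day 18 arrays, against 27.9 and 38.2 on the day 14 arrays, a difference of 5.17 ± 0.29 (adjusted p = 9.00e-11). The 2 ages are separated by a wide gap. Cmtm2b, a membrane protein of the CKLF-like MARVEL family, had 2579 and 2842 on day 18, against 108 and 71.8 on day 14 (4.82 ± 0.23). Its neighbour Cmtm2a had 1212 and 1366, against 81.5 and 67.3 (3.98 ± 0.23), and its other probe set differed by 4.06. Both genes rose, but such near copies may share probe signal, so how the rise divides between them is uncertain. Pgam2, the phosphoglycerate mutase of muscle and late germ cells that acts in glycolysis, had 1657 and 1930 on day 18, against 106 and 89.5 on day 14 (4.10 ± 0.16, adjusted p = 1.25e-12). Mesp1, a basic helix-loop-helix factor best known from heart mesoderm, had 879 and 1011, against 35.4 and 46.4 (4.30 ± 0.15). Adam3, a sperm surface protein needed in the mouse for passage into the oviduct, had 612 and 734, against 29.0 and 29.2 (4.20 ± 0.20). In none of these genes did the arrays of the 2 ages overlap, which the naming rule required.

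Rasl2-9, an intronless relative of the Ran GTPase gene, had 977 and 1226 on day 18, against 59.6 and 48.6 on day 14 (4.16 ± 0.21). Ccna1, the cyclin without which mouse spermatocytes do not enter the meiotic divisions, had 228 and 267 on day 18, against 11.3 and 6.21 on day 14 (3.96 ± 0.35, or 2.84 with the floor). Tex22 had 335 and 365, against 18.6 and 8.20 (4.12 ± 0.29, or 3.34 with the floor). For Ccna1, Tex22 and the following genes the day 14 level lies low on the scale, so the size of the difference rests in part on the constant added before taking logs. Tmed6, of the p24 family of cargo carriers, had 160 and 209 on day 18, against 0.693 and 2.07 on day 14 (4.37 ± 0.30, or 2.40 with the floor). Ms4a19, a membrane protein of the MS4A family, had 242 and 281, against 6.39 and 4.05 (4.37 ± 0.29, or 2.92 with the floor). Kcnj9, a subunit of inward rectifier potassium channels, had 135 and 143, against 2.44 and 0.513 (3.99 ± 0.33, or 2.01 with the floor), and its other 3 probe sets differed by 1.55 to 2.24. All 12 were also higher on day 20 than on day 10, by 4.19 to 8.61. They differ in when the rise began. From day 10 to day 14 Pgam2 and Cmtm2b had already risen, by 3.14 ± 0.16 and 3.06 ± 0.23, whereas Ccna1, Kcnj9 and Mesp1 differed by 0.04 ± 0.35, 0.04 ± 0.33 and 0.26 ± 0.15 and were not called.

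**Figure D3:**
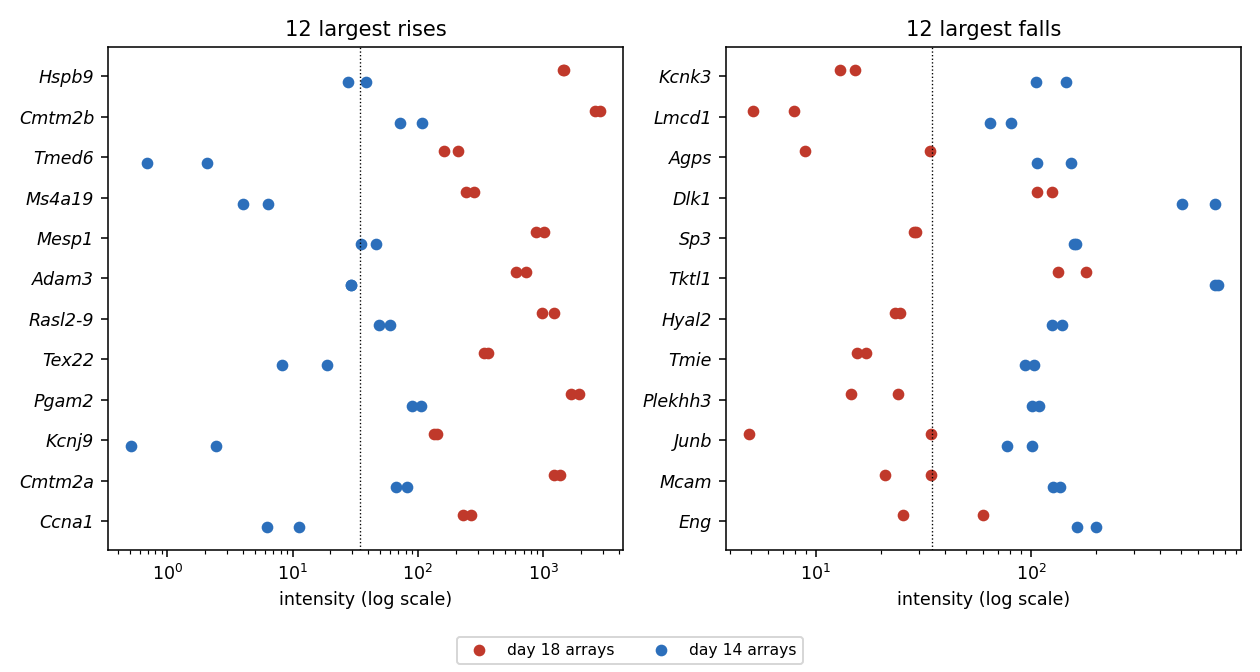
Intensity (log scale) of the 12 largest rises (left) and the 12 largest falls (right), 1 point an array, day 18 in red above day 14 in blue for each gene. The dotted line marks the median of all intensities, 34.6. Day 18 and day 14 arrays do not overlap for any of the 24 genes, which the rule required, and most of the falls end near or under the dotted line on day 18.

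Gene lists describe the rise by function. Each count is set beside the share over all genes, 13.6% higher and 3.64% lower, and beside the median of all genes, 0.05. Counts at an unadjusted p of 0.05 (limma) stand beside 4377 higher and 4119 lower of all 16429 genes. Genes of the axoneme and of ciliogenesis, the microtubule core of the sperm tail, had the highest median of all lists. Of 42 tested members 33 rose (32 with the floor) and no fall was called; 36 were higher and none lower at an unadjusted p of 0.05, and the median difference was 2.0. Dnaic2, an intermediate chain of the outer dynein arm, had 101 and 95.3 on day 18, against 1.04 and 3.10 on day 14 (3.43 ± 0.28). With every value under 69.1 raised to 69.1, Dnaic2 was not called (0.51). Tekt3, a filament protein inside the microtubule doublets, had 224 and 262, against 21.8 and 16.7 (3.21 ± 0.31). Rsph6a, of the radial spokes, had 207 and 216, against 16.7 and 26.2 (2.92 ± 0.27). Dynein chains (Dnah2, 2.88 ± 0.24), the radial spoke protein Rsph9 (2.53 ± 0.16), the central pair protein Spag16 (2.51 ± 0.24) and the nexin-dynein link protein Drc1 (2.51 ± 0.21) rose with them. The members that were not called include Foxj1 and Rfx3, transcription factors of ciliated cells, at -0.17 and 0.15, and the intraflagellar transport genes Ift81, Ift88 and Ift74, at 0.24, 0.52 and 0.62. For Foxj1 and Rfx3 the adjusted p was 0.711 and 0.719 (limma).

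Some genes for the outer parts of the tail rose too. Of 23 tested genes of the fibrous sheath and outer dense fibres 10 rose (6 with the floor) and no fall was called, with a median of 0.95 (0.03 with the floor). Tcp11 had 898 and 967 on day 18, against 142 and 123 on day 14 (2.75 ± 0.28). Odf4, of the outer dense fibres, had 382 and 362, against 75.4 and 47.5 (2.49 ± 0.29). The actin-like Actl7b had 447 and 468, against 80.6 and 82.5 (2.38 ± 0.22), and its relative Actl7a had 60.7 and 88.3, against 1.35 and 6.96 (2.80 ± 0.44). Actl7a was not called with values raised to 69.1 (0.18). Akap4, the main scaffold of the fibrous sheath, had only 28.5 and 13.0 on day 18, against 1.69 and 3.26 on day 14 (1.42 ± 0.37). Odf1, of the outer dense fibres, had 45.0 and 27.2, against 10.0 and 7.32 (1.39 ± 0.33). Neither Akap4 nor Odf1 was called with the floor, both day 18 means lying near the level of weak probe sets. Of 13 testis serine kinase genes 4 rose (2 with the floor), led by Stk33 with 878 and 1009 on day 18, against 278 and 217 on day 14 (1.90 ± 0.25). Tssk1 had 94.9 and 99.9 on day 18, against 25.2 and 18.7 on day 14 (1.83 ± 0.21). Tssk1 was not called with values raised to 69.1 (0.49).

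Many acrosome genes rose. The acrosome is the secretory cap of the sperm head. Of 31 tested genes for acrosomal and egg-binding proteins 18 rose (14 with the floor), no fall was called, 22 were higher and none lower at an unadjusted p of 0.05, and the median was 1.40 (0.52 with the floor). Prss21, a membrane-bound serine protease, had 238 and 243 on day 18, against 11.9 and 18.2 on day 14 (3.46 ± 0.33). Zpbp2, which helps to shape the acrosome, had 771 and 954, against 111 and 79.1 (3.09 ± 0.30). Dpy19l2, whose loss leaves sperm with round heads, had 469 and 590, against 42.9 and 74.5 (3.05 ± 0.30). Crisp2 had 2729 and 3075, against 405 and 358 (2.90 ± 0.28), and Acr, the protease acrosin, had 632 and 677, against 94.7 and 110 (2.59 ± 0.17). Adam1b had 212 and 192, against 36.6 and 3.45 (3.22 ± 0.42), the 2 day 14 arrays differing widely. Not all of the list moved. Spam1 and Izumo1, the sperm hyaluronidase and the fusion protein that meets the egg, were at -0.43 and 0.85 and were not called.

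Genes of the energy supply of germ cells gave 16 rises among 25 tested (14 with the floor), no called fall, and a median of 1.53. At an unadjusted p of 0.05, 19 were higher and 2 lower. Beside Pgam2, the glycolytic retrogene Pgk2 had 362 and 406 on day 18, against 21.8 and 33.3 on day 14 (3.48 ± 0.33). The glycerol kinase Gk2 had 2060 and 2449, against 403 and 384 (2.49 ± 0.16). Ldhal6b, a testis lactate dehydrogenase, had 2650 and 2949, against 589 and 428 (2.46 ± 0.15), and Ldhc, the best known of these, had 6045 and 6463, against 2491 and 1861 (1.53 ± 0.22). Sugar and lactate carriers were among the rises. Slc2a5, a fructose carrier, had 389 and 427, against 54.1 and 61.4 (2.66 ± 0.18), and the monocarboxylate carrier Slc16a7 had 184 and 219, against 27.1 and 25.4 (2.61 ± 0.25). Of 16 tested counterparts used by other cells 1 rose and 2 fell, with and without the floor, with a median of -0.57. The rise was Ldha (1.61 ± 0.09), with 2458 and 2553 on day 18, against 818 and 811 on day 14. The falls were Oxct1 (-1.09 ± 0.09), a ketone body enzyme whose other 3 probe sets differed by -1.12 to 0.67 and whose mean over all of them (-0.32) was not called, and the lactate carrier Slc16a1 (-1.04 ± 0.16), which was not called without day 18 replicate 2 (-0.95).

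**Figure D4:**
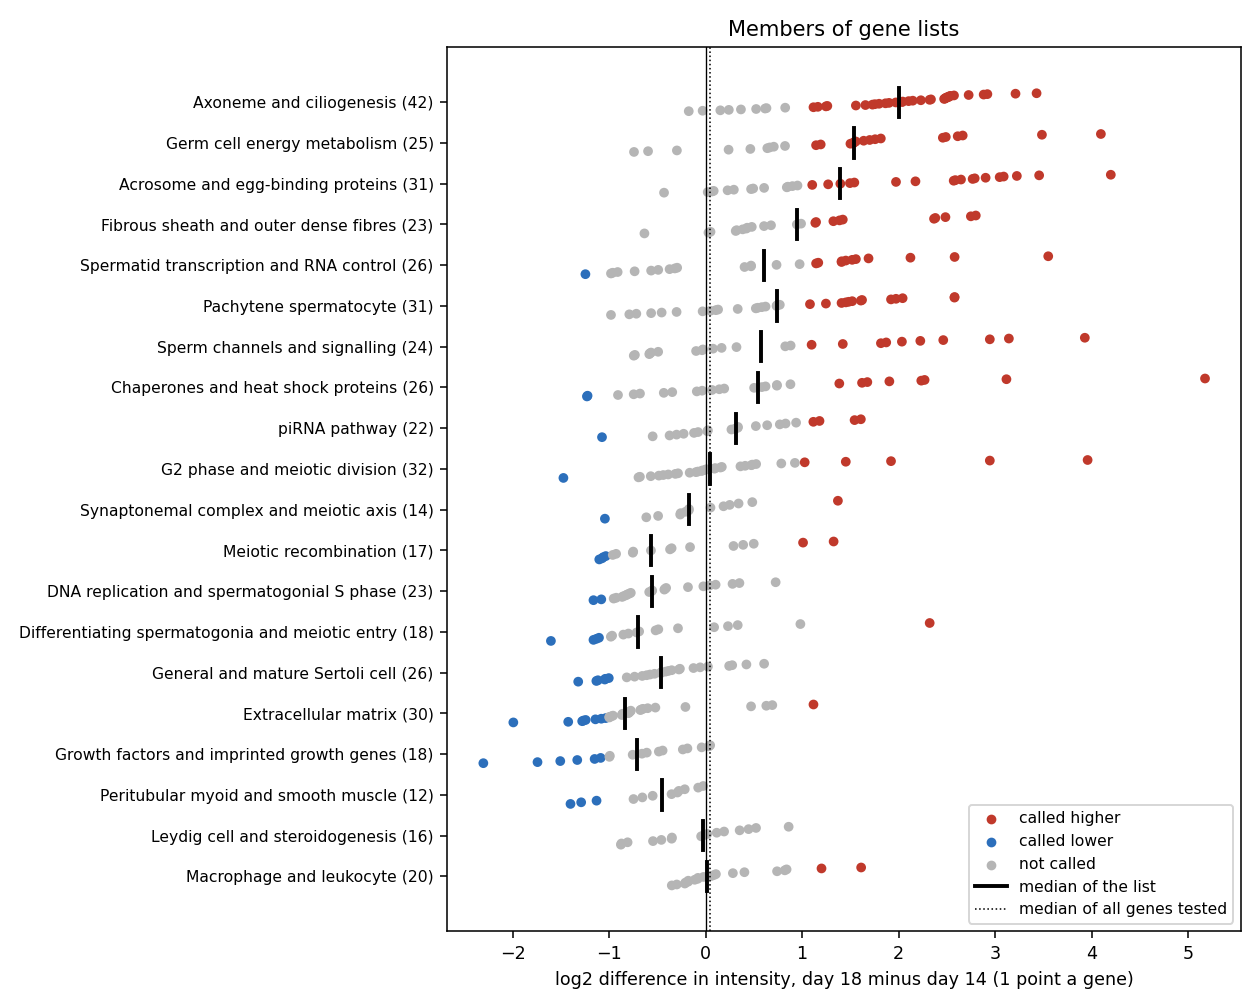
Log2 difference in intensity, day 18 minus day 14, for the tested members of 20 gene lists, 1 point a gene, with the number tested in brackets. Red points were called higher on day 18, blue points lower, grey points were not called. Black bars give the median of each list and the dotted line the median of all genes, 0.05. Medians run from 2.0 for the axoneme to -0.83 for the extracellular matrix.

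Channels and signalling proteins of sperm gave 10 rises among 24 tested (8 with the floor), no called fall, 13 higher and 4 lower at an unadjusted p of 0.05, and a median of 0.57. Ppp3r2, the testis regulatory subunit of calcineurin, had 1048 and 1175 on day 18, against 86.2 and 49.4 on day 14 (3.93 ± 0.22). Catsperd, of the sperm calcium channel, had 459 and 477, against 48.2 and 44.0 (3.14 ± 0.21). Slc26a8, an anion transporter of the sperm annulus, had 417 and 438, against 72.2 and 70.2 (2.46 ± 0.23). Adcy10, the soluble adenylyl cyclase, had 96.3 and 98.2, against 17.7 and 18.0 (2.03 ± 0.30). Adcy10 was not called with values raised to 69.1 (0.49). The arrays of the 2 ages stand apart in each of these genes, as in nearly all called genes. Among chaperones, 8 of 26 tested rose (7 with the floor) and 2 fell. Cct6b, a testis subunit of the chaperonin CCT, had 723 and 825, against 92.5 and 72.7 (3.12 ± 0.22), and the J-domain proteins Dnajb3 and Dnajb13 rose by 2.27 ± 0.15 and 2.24 ± 0.27. The falls were the stress-inducible Hspa1b (-1.23 ± 0.24) and Hspa1a (-1.22 ± 0.33), near copies that the array may not tell apart. Hspa2, the chaperone of the meiotic spindle and of synaptonemal complex disassembly, had 1814 and 1756, against 1190 and 954, and was not called (0.74 ± 0.13).

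Regulators of the spermatid programme were partly up on day 18. Of 26 tested transcription and RNA control genes of spermatids 11 rose (10 with the floor) and 1 fell, with a median of 0.60. Pabpc2, a poly(A)-binding protein of the testis, had 1111 and 1244 on day 18, against 98.6 and 88.1 on day 14 (3.55 ± 0.29). Papolb, the testis poly(A) polymerase, had 394 and 411, against 59.5 and 62.0 (2.58 ± 0.22). Crem, whose activator form drives spermatid genes, had 402 and 403, against 138 and 103 (1.69 ± 0.24), but its other 3 probe sets differed by 0.19, 0.80 and -0.08, and the mean over all of them (0.65) was not called. Rfx2, a factor for ciliary genes, had 249 and 197, against 82.9 and 59.2 (1.56 ± 0.37), with other probe sets at 2.50 and -0.01. Tbpl1, a relative of the TATA-binding protein, rose by 1.52 ± 0.11, its other probe set differed by 0.18, and the mean of both (0.85) was not called. The fall was Cpeb1, which controls cytoplasmic polyadenylation (-1.24 ± 0.46, adjusted p = 0.034, limma), and it was not called when any one of the 4 arrays was left out (-1.12 to -1.37). Most genes that pack the spermatid nucleus were weak on day 18, with 10 of 13 means under 34.6. Of these 13 tested 3 rose and none was called with the floor, and Prm2, a protamine, had 59.4 and 59.6 on day 18, against 20.0 and 2.79 on day 14. Tnp1, a transition protein, had 2.63 and 2.75, against 6.28 and 1.44.

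Within meiosis the changes ran both ways. Of 31 tested genes known from pachytene spermatocytes 13 rose, the same number as with the floor, no fall was called, 19 were higher and 5 lower at an unadjusted p of 0.05, and the median was 0.74. Piwil1, the PIWI protein of pachytene piRNAs, had 1566 and 1494 on day 18, against 538 and 458 on day 14 (1.61 ± 0.17). Tcte1 had 159 and 188, against 29.3 and 16.8 (2.58 ± 0.38), and Tekt1 had 689 and 790, against 194 and 154 (2.04 ± 0.29). Adam2, the sperm surface partner of other ADAM proteins, had 1765 and 1898, against 525 and 404 (1.97 ± 0.34). Clgn, a chaperone of the endoplasmic reticulum that folds such surface proteins, had 1234 and 1229, against 419 and 372 (1.62 ± 0.18), with other probe sets at 1.52 and 1.56. Brdt, a bromodomain reader of the testis, had 1222 and 1235, against 484 and 389 (1.48 ± 0.17), but its other 2 probe sets were at 0.21 and 0.02, and the mean over all of them (0.57) was not called. Of 22 piRNA pathway genes 4 rose (5 with the floor) and 1 fell. They were Piwil1, the outer mitochondrial membrane protein Pld6 (1.54 ± 0.15), the zinc finger protein Gtsf1 (1.18 ± 0.10, and 0.89 after scaling to a common median, no longer called) and Adad2 (1.12 ± 0.25, likewise 0.84), against Tex15 (-1.07 ± 0.08). Mael, an early member of the pathway, was at 0.52.

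The synaptonemal complex gave 1 call in each direction. Of 14 tested genes of the complex and the meiotic axis 1 rose and 1 fell (7.14% each), with a median of -0.17. Over all genes 13.6% rose and 3.64% fell, so these counts are too small to set the list apart. Sycp3, of the lateral element, had 3408 and 3676 on day 18, against 3372 and 3462 on day 14 (0.05 ± 0.10), the arrays overlapping. Sycp1, of the transverse filaments, had 1964 and 1963, against 2605 and 2119 (-0.26 ± 0.13), and was not called. Syce1, of the central element, was the rise, with 1937 and 2050 against 853 and 687 on day 14 (1.37 ± 0.10). Rec8, a meiotic cohesin, had 29.0 and 28.1, against 60.7 and 74.0 (-1.04 ± 0.31), which was called neither with the floor (-0.96) nor without day 14 replicate 2 (-0.91). Of 17 tested recombination genes 2 rose and 4 fell (2 and 5 with the floor), with a median of -0.57. Dmc1, the meiotic recombinase, had 147 and 162, against 368 and 313 (-1.10 ± 0.19), and its other probe set differed by -0.23. Tex15, which loads recombinases, had 682 and 650, against 1432 and 1386 (-1.07 ± 0.08). Mcm8 (-1.06 ± 0.14, and -0.96 after quantile normalization, not called) and the X-linked Tex11 (-1.03 ± 0.18) fell as well. Psmc3ip, a partner of Dmc1 in strand invasion, rose, with 1355 and 1411 against 581 and 514 on day 14 (1.33 ± 0.09). Spo11, the enzyme that makes the meiotic breaks, had 657 and 648, against 333 and 308 (1.01 ± 0.20). Several of these lie close to the 2-fold limit. Without day 14 replicate 1 Dmc1 was not called (-0.99, or -0.66 as the mean of its probe sets), nor was Spo11 without day 14 replicate 2 (0.95), nor Tex11 without day 14 replicate 2 (-0.92) or day 18 replicate 2 (-0.91).

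Among 32 tested genes of G2 phase and the meiotic divisions 5 rose and 1 fell, with and without the floor, and the median was 0.05 (-0.23 after scaling to a common median). Beside Ccna1, the rises were Cetn1, a centrin of the centriole, with 2439 and 2483 on day 18 against 325 and 301 on day 14 (2.95 ± 0.33), and Aurkc, the meiotic Aurora kinase, with 211 and 233 against 55.2 and 50.5 (1.92 ± 0.22). Ccnk, a cyclin of transcription elongation, rose by 1.45 ± 0.15. Nek2, a centrosome kinase, rose by 1.03 ± 0.11 and was not called without day 14 replicate 2 (0.84) or without day 18 replicate 2 (0.97), nor after scaling to a common median (0.73). The fall was Ccnb3, an X-linked cyclin of early meiosis, with 38.4 and 39.2 on day 18 against 97.1 and 152 on day 14 (-1.47 ± 0.34). Ccnb3 was not called with values raised to 69.1 (-0.81). Aurka (0.93 ± 0.09) and Ccnb2 (0.78 ± 0.09) were higher on both day 18 arrays and stayed under the 2-fold limit. Cdc25c, the phosphatase that starts division, had 24.6 and 36.1, against 33.8 and 45.0 (-0.31 ± 0.26), the arrays overlapping, and its other probe set differed by -2.17.

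**Figure D5:**
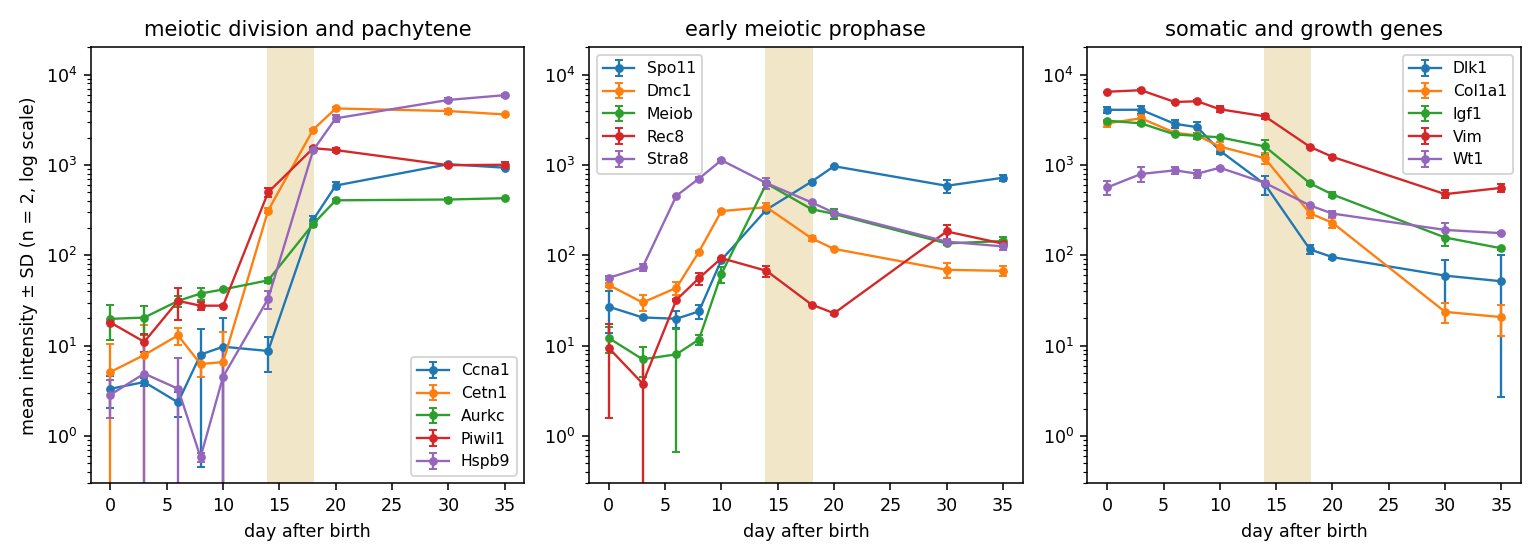
Mean intensity ± SD (n = 2 arrays a day, log scale) over 10 days from day 0 to day 35 for genes of the meiotic division and pachytene (left), of early meiotic prophase (middle) and of somatic cells and growth (right). The shaded band spans day 14 to day 18, and bars that reach 0 run off the bottom. Ccna1 lies near the bottom of the scale up to day 14 and at 247 on day 18, Dmc1 and Stra8 are past their highest day, and Dlk1 and Col1a1 drop within the band.

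Some genes of spermatogonia and of meiotic entry fell. Of 18 tested genes of differentiating spermatogonia and meiotic entry 4 fell and 1 rose (4 and 2 with the floor), with a median of -0.70. Dmrt1, a regulator shared by spermatogonia and Sertoli cells, had 636 and 570 on day 18, against 1221 and 1446 on day 14 (-1.13 ± 0.11). Usp26, an X-linked deubiquitinase, had 14.0 and 25.1, against 78.8 and 68.8 (-1.60 ± 0.33). Usp26 was not called with values raised to 69.1 (-0.09). Crabp1, which binds retinoic acid, had 139 and 125, against 337 and 253 (-1.10 ± 0.22), and was not called without day 14 replicate 1 (-0.90). Stra8, the gatekeeper of meiotic entry, had 383 and 388, against 689 and 568, and was not called (-0.69 ± 0.11). Kit, the receptor of differentiating spermatogonia, had 118 and 120, against 216 and 227 (-0.85 ± 0.36, adjusted p = 0.061, limma). Dmrtb1, which is known for the switch from mitosis to meiosis and is also made in later spermatocytes, rose, with 892 and 927 against 190 and 162 on day 14 (2.32 ± 0.21). Of 23 genes of DNA replication and S phase 2 fell (3 with the floor), Ccnd2 (-1.16 ± 0.10) and Mcm4 (-1.08 ± 0.11), and no rise was called; 17 were lower and 1 higher at an unadjusted p of 0.05, with a median of -0.56. The proliferation marker Mki67 had 417 and 445, against 669 and 609 (-0.56 ± 0.12, not called). Of 19 genes of undifferentiated spermatogonia 2 fell (as many with the floor), 3 were higher and 7 lower at an unadjusted p of 0.05, and the median was -0.32. The falls were the X-linked Sox3 (-1.11 ± 0.20, with its other probe set at 0.78) and Lin28a (-1.01 ± 0.21). Sox3 was not called without day 14 replicate 1 (-0.92), nor was Lin28a (-0.82), which was also not called without day 18 replicate 2 (-0.91). Gfra1, a receptor of stem cells, had 29.9 and 12.6, against 35.6 and 21.3 (-0.36 ± 0.28), the arrays overlapping.

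The 12 largest falls were smaller than the 12 largest rises. Dlk1, an imprinted growth regulator, had 125 and 107 on day 18, against 505 and 718 on day 14 (-2.30 ± 0.37). Its other, weaker probe set differed by 0.43, and the mean of both (-0.94) was not called. Tktl1, an X-linked relative of transketolase, had 180 and 134, against 739 and 720 (-2.17 ± 0.20), with other probe sets at -1.09 and 0.14. Kcnk3, a leak potassium channel, had 15.1 and 12.9, against 105 and 145 (-2.59 ± 0.22), with other probe sets at -1.65 and 0.07. Sp3, a broadly expressed transcription factor, had 29.1 and 28.5, against 158 and 162 (-2.20 ± 0.39). Eng, endoglin of vessels and stromal cells, had 60.1 and 25.4, against 164 and 200 (-1.99 ± 0.31), with the day 18 arrays far apart but both under day 14. Agps, an enzyme of ether lipid synthesis, had 8.89 and 33.8, against 153 and 107 (-2.37 ± 0.34). Its other probe set that passed the filter differed by 0.38, and the mean over its probe sets (-0.65) was not called. The remaining named falls were Lmcd1 (-2.48 ± 0.30), Hyal2 (-2.14 ± 0.25), Tmie (-2.14 ± 0.30), Plekhh3 (-2.08 ± 0.22), Junb (-2.06 ± 0.45) and Mcam (-2.0 ± 0.30). Junb, of the AP-1 factors, had 34.1 and 4.88, against 101 and 76.9. With values under 69.1 raised to 69.1, 8 of the 12 were no longer called. These were Agps, Hyal2, Junb, Kcnk3, Lmcd1, Mcam, Plekhh3 and Tmie. All of the 12 except Junb (-0.97 ± 0.45) were also lower on day 20 than on day 10.

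Some extracellular matrix and growth genes fell. Of 30 tested matrix genes 8 fell and 1 rose (11 and none with the floor), 25 were lower and 4 higher at an unadjusted p of 0.05, and the median was -0.83. Col1a1, a chain of collagen I, had 317 and 266 on day 18, against 1068 and 1300 on day 14 (-1.99 ± 0.16), and its weaker probe set differed by -0.56. Col1a2, the other chain, had 1165 and 1115, against 2894 and 3255 (-1.42 ± 0.13). Lama1, a laminin of the tubule basement membrane, had 99.8 and 108, against 254 and 272 (-1.28 ± 0.30). Lamb1 (-1.24 ± 0.11) and the X-linked Bgn, biglycan (-1.14 ± 0.17), fell too. As means over all probe sets of the gene Col1a2 (-0.90), Lamb1 (-0.82) and Bgn (-0.93) were not called. Of 18 growth and imprinted genes 6 fell (8 with the floor) and no rise was called; 12 were lower and none higher at an unadjusted p of 0.05, with a median of -0.71. Plagl1, an imprinted zinc finger factor, had 308 and 321, against 950 and 1201 (-1.74 ± 0.11). Igf1, the growth factor, had 646 and 608, against 1388 and 1813 (-1.33 ± 0.11). Cdkn1c, an imprinted inhibitor of the cell cycle, had 37.2 and 26.8, against 100 and 108 (-1.51 ± 0.15). Cdkn1c was not called with values raised to 69.1 (-0.59). Igf2, an imprinted fetal growth factor, had 379 and 308, against 717 and 821 (-1.15 ± 0.15). The other Igf2 probe set was weak and differed by 1.27, and the mean of both was 0.06, no longer a fall. As means over all probe sets Plagl1 (-0.94) and Igf1 (-0.80) stayed under the 2-fold limit. The arrays of the 2 ages do not overlap in any of these genes, as in all 598 called falls.

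Several genes of Sertoli cells, the somatic nurse cells of the tubule, fell. Of 26 tested genes of general and mature Sertoli cells 6 fell (5 with the floor) and no rise was called; 19 were lower and 2 higher at an unadjusted p of 0.05, with a median of -0.46 (-0.75 after scaling to a common median). Vim, vimentin, had 1551 and 1625 on day 18, against 3308 and 3593 on day 14 (-1.12 ± 0.08, or -0.92 as the mean of its probe sets, not called). Gdnf, the factor that keeps spermatogonial stem cells, had 17.0 and 12.7, against 57.2 and 41.1 (-1.32 ± 0.26), and was not called with the floor. Slc38a5, an X-linked glutamine carrier, was at -1.04 ± 0.14. Cyp26b1, which breaks down retinoic acid, was at -1.04 ± 0.16, and Ocln of the tight junction at -1.0 ± 0.17. These falls lie at the 2-fold limit. Leaving out 1 array ended the call of Slc38a5 (-0.97 without day 14 replicate 1), of Cyp26b1 (-0.92 without day 14 replicate 2 and -0.95 without day 18 replicate 2) and of Ocln (-0.81 without day 14 replicate 1 and -0.94 without day 18 replicate 2). Among markers in wide use, Wt1, Sox9 and Clu passed the adjusted p (6.25e-05, 0.0218 and 2.33e-05, limma) but stayed under the 2-fold limit, and Amh did not pass it (0.351). Wt1 had 356 and 356, against 616 and 650 (-0.82 ± 0.13), Sox9 had 212 and 188, against 297 and 260 (-0.46 ± 0.16), Clu had 5433 and 5452, against 7069 and 7147 (-0.38 ± 0.06), and Amh had 18.5 and 22.7, against 17.1 and 43.3 (-0.33 ± 0.28). Among 15 genes of immature Sertoli cells 2 fell, Cdkn1c and the hedgehog ligand Dhh (-1.13 ± 0.10), and 1 rose, Emx2 (1.06 ± 0.34), which was not called with the floor.

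Some peritubular and vascular genes fell, and no Leydig gene was called. Of 12 tested genes of peritubular myoid and smooth muscle 3 fell, no rise was called, 6 were lower and none higher at an unadjusted p of 0.05, and the median was -0.45. Myh11, smooth muscle myosin, had 191 and 159 on day 18, against 441 and 504 on day 14 (-1.40 ± 0.16, or -0.74 as the mean of its probe sets, not called), while Acta2, smooth muscle actin, had 3468 and 3485, against 4168 and 4729 (-0.35 ± 0.08, not called). Ptch1, the hedgehog receptor, fell by 1.29 ± 0.12 on the log2 scale, and Pdgfra by 1.13 ± 0.18. Of 14 endothelial genes 3 fell (2 with the floor), no rise was called, and the median was -0.14. Differences of 6 of the 14 lay above 0, and at an unadjusted p of 0.05 (limma) 1 was higher and 4 lower. Of 16 tested Leydig cell and steroid genes none was called in either direction by limma; 3 were higher and 7 lower at an unadjusted p of 0.05, and the median was -0.03. Cyp17a1, an enzyme of androgen synthesis, had 698 and 633, against 486 and 486 (0.45 ± 0.12), and Hsd17b3 had 91.9 and 83.8, against 78.3 and 95.7 (0.02 ± 0.13), the arrays overlapping. Of 20 macrophage and leukocyte genes 2 rose (1 with the floor), both of MHC class II. H2-Aa had 135 and 167, against 34.0 and 56.0 (1.61 ± 0.24), with other probe sets at 0.85 and 0.24 and a mean over all of them of 0.90, not called.

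Markers of the cell types in the tissue were present, and were summed over each list on each array. Such a sum follows the strongest gene of its list. On day 18 Clu gave 5433 and 5452 of the Sertoli sum, and Acta2 gave 3468 and 3485 of the peritubular sum. The sum of 7 spermatocyte markers was 10996 and 11436 on the day 18 arrays, against 8966 and 9012 on day 14. The sum of 6 spermatid markers was 149 and 140, against 62.2 and 43.9. Of these 6 none was called higher with the floor, and 4 had a day 18 mean under 34.6. The sum of 6 Sertoli markers was 7273 and 7276, against 9600 and 9795, and that of 4 spermatogonial markers 643 and 645, against 1112 and 966. The 4 tested Leydig markers summed to 1479 and 1417, against 1310 and 1460. The sum of 3 peritubular markers was 3772 and 3787, against 4788 and 5434, and that of 3 endothelial markers 163 and 133, against 94.4 and 117, with a median difference of 0.42 and no call. Genes of tissues that a testis should lack also moved. Of 7 epididymal genes 2 rose and of 14 marker genes of other tissues 4 rose, and none of them was called with the floor. The first list summed to 144 and 137 on day 18, against 57.8 and 87.9 on day 14 and the second to 598 and 677 on day 18, against 314 and 437 on day 14. Gh, pituitary growth hormone, for example, had 32.0 and 42.2, against 0.740 and 12.7. These rises lie at the level of the weak end of the arrays, and their part in the weak rises of other lists was not tested.

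More X-linked genes fell than rose. Genes of the X chromosome are silenced in the sex body of pachytene spermatocytes. Of 559 X-linked genes tested 53 fell and 31 rose (59 and 3 with the floor), with a median of -0.44, against a median of 0.06 over 15732 autosomal genes, of which 540 fell and 2176 rose. Among genes whose mean over the 4 arrays reached 34.6, the median was -0.59 for 393 X-linked genes and -0.09 for 11223 autosomal genes. No autosome had a median under -0.04, the value of chromosome 18. The X share of the summed intensity of all tested genes was 2.32% ± 0.0642 on day 18 and 3.58% ± 0.110 on day 14 (SD, n = 2 each), a difference of -1.26 percentage points. An exact permutation test gave p = 0.333, two-sided, the smallest that 2 arrays against 2 allow. The share lay between 3.93% and 4.20% on the 10 arrays of days 0 to 10 and between 1.72% and 1.87% on the 6 arrays of days 20 to 35. Tktl1 fell most. Irak1, a kinase of innate immune signalling, had 62.4 and 62.9 on day 18, against 232 and 317 on day 14 (-1.98 ± 0.27), but its other 3 probe sets differed by -1.26 to 0.10 and the mean over all of them (-0.80) was not called. Maged1 had 927 and 876, against 2547 and 2445 (-1.46 ± 0.08), and Gprasp1, a receptor sorting protein, had 367 and 309, against 967 and 878 (-1.43 ± 0.09). The 3 X-linked rises that held with the floor were Tsga8 (2.08 ± 0.33), Atp2b3 (1.71 ± 0.29) and Kcnd1 (1.65 ± 0.35). With values raised to 69.1 none of these 3 was called (0.64, 0.75 and 0.08), and Kcnd1 was not called as the mean of its probe sets either (0.93). Irak1, Maged1, Gprasp1 and these 3 were named after their values were seen.

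Some autosomal copies of X-linked genes rose. Such retrogenes are thought to stand in for parents that are silent in meiosis. Of 12 tested retrogenes 4 rose, with and without the floor, no fall was called, 6 were higher and none lower at an unadjusted p of 0.05, and the median was 0.65. Of 10 tested X-linked parents 1 fell, no rise was called, 9 were lower and none higher at an unadjusted p of 0.05, and the median was -0.68. Each parent was read from 1 probe set, and some other probe sets had the opposite sign. Rbmx was at -0.78 with others at -1.05, 1.49 and 1.01, and Utp14a at -0.67 with 0.26. Cstf2 was at -0.48 with others at -0.61 and 0.23. The others of Pgk1 were at -0.58 and 0.05, of Tktl1 at -1.09 and 0.14, of Pdha1 at -1.26 and of Cetn2 at -0.95. Pgk2 rose by 3.48 ± 0.33, while its parent Pgk1 had 596 and 531 on day 18, against 659 and 738 on day 14 (-0.31 ± 0.12, not called). Cetn1 rose by 2.95 ± 0.33, while Cetn2 had 257 and 245, against 380 and 444 (-0.69 ± 0.11, not called). Prps1l1, a copy of a ribose phosphate synthetase gene, had 1661 and 1914, against 263 and 200 (2.91 ± 0.32), while Prps1 had 246 and 256, against 429 and 401 (-0.71 ± 0.12, not called). Pdha2, a copy of the pyruvate dehydrogenase subunit gene Pdha1, had 1300 and 1231, against 774 and 654 (0.82 ± 0.18), under the 2-fold limit, and Pdha1 was at -0.83 ± 0.15. Tktl2 and Cstf2t were at -0.60 and 0.07 and did not rise. On the Y chromosome 9 genes were tested, 4 fell (5 with the floor) and 1 rose, with a median of -0.92. The rise was Orly, which was not called with the floor (0.89). Uba1y, a ubiquitin-activating enzyme of spermatogonia, had 429 and 386, against 982 and 960 (-1.24 ± 0.08). Zfy2, a zinc finger factor, had 85.1 and 69.1, against 213 and 195 (-1.32 ± 0.38), and was not called without day 14 replicate 1 (-1.26) or without day 18 replicate 2 (-1.19).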

How the data were processed

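Total RNA of whole testis was extracted with Trizol, amplified from the 3′ end, labelled with biotin and hybridised to 1-colour oligonucleotide arrays, per the labels' protocols. The authors deposited 1 linear intensity for each of 45101 probe sets on each array, without detection calls, and how probes were summarised is not given in these labels. The values share 1 trimmed mean over all arrays, as tested on the files. No background correction or between-array normalization was added. Control probe sets (64) were left out, 34945 probe sets had 1 gene symbol, 932 had several and 9160 none, and 34741 were matched to RefSeq by gene identifier. Each gene was read from the 1 probe set, among those with a single symbol, whose mean log2 intensity was highest. Of 18193 genes, 16429 were over the array's own 40th percentile of intensity on at least 2 arrays and were tested.

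From the deposited intensities log2(intensity + 7.83) was computed, the constant being the 20th percentile of all intensities. limma 3.58.1 in R 4.3.3 fitted day as a factor of 10 levels over 20 arrays, with a variance trend. The degrees of freedom were 10 residual and 8.88 prior. The added constant shrinks the fold change of weak genes. The lowest intensities were themselves higher on day 18, so the difference of a weak gene may be too small or too large. The X share was tested by an exact permutation of arrays. Tables, motif searches, alignment and figures used Python 3.11.15, pandas 2.3.3, Biopython 1.88 and matplotlib 3.10.9.

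The members and gene lists were chosen with earlier results of these data known. Entries for Abp and Est were removed from the lists after the data were seen, because older synonyms led to other genes. Named genes were the 12 largest rises and falls called with and without the floor and without overlap between arrays, clone-type symbols left out. Alternatives covered the scaling, the added constant, the floor, the filter, the choice of probe set, the variance trend, the arrays in the fit, array weights, the replicate number and each array left out.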

Additional observations from a re-analysis of the deposited data

How the results depend on the processing

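The main counts were 2239 genes higher and 598 lower on day 18. Weak values limit the rises: adding the 40th percentile (21.6) before taking logs gave 1415 higher and 353 lower, raising values to the median of all intensities gave 1207 higher, and raising them to 69.1 gave 863 higher and 375 lower, of which 1411 and 352, 1152, and 844 and 325 were among the main calls. Scaling to a common median gave 1656 lower. Leaving out each array in turn gave 1829 to 2027 higher and 534 to 734 lower. The replicate numbers did not pair the arrays (r = -0.003 between same-numbered deviations of the 2 ages), and the fit with the replicate number as a block gave 2234 higher and 601 lower. Of 272 genes followed through 18 alternatives, 218 were called, and 108 of these lost the call under at least 1, including 9 of the 24 named genes. Raising values to 69.1 ended 60 calls, raising them to the median of all intensities 34 and the larger added constant 33. Taking the mean of all probe sets ended 34 calls and turned the difference of Igf2 to 0.058, no longer a fall. Scaling to a common median ended 23 calls and quantile normalization 18. The array weights, the absence of a filter and the replicate block ended none of them. The cause of these changes was not tested. Of 175 other probe sets of 108 of these genes, 144 had the sign of the one reported.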

Other observations

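Genes known only by clone or prediction symbols were left out of the named genes. Of 1464 tested, 450 rose (30.7%) and 11 fell, against 13.6% and 3.64% of all genes. With the floor 180 rose, against 1207 of all 16429 genes (7.35%). 1700020D05Rik had 839 and 919 on day 18, against 31.0 and 21.6 on day 14, a difference of 4.71. Gm7444 had 1208 and 1273, against 49.7 and 53.7, a difference of 4.39. Neither pair of ages overlaps.

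Among germ-line genes of the ubiquitin system 3 of 22 tested rose and 1 fell, with and without the floor, and the median was 0.05 (-0.24 after scaling to a common median). Marchf11, a membrane-bound ubiquitin ligase, had 1215 and 1214 on day 18, against 138 and 106 on day 14 (3.25 ± 0.30). Of 18 tested adhesion and junction genes 1 rose, Nectin3 (1.35), and 2 fell, Itgb1 (-1.32) and Ocln, with a median of -0.49. As means over all probe sets of the gene Nectin3 (0.79) and Itgb1 (-0.40) were not called.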
